A study of Homo sapiens with 12 samples.

Results

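The genes described here are 10 genes of fatty acid synthesis and desaturation: SREBF1, FASN, ACACA, ACLY, SCD, ELOVL6, FADS1, FADS2, ACSS2 and ACSL3. They were chosen by name for their place in the pathway, with earlier results of these data known, and are 10 of the 17085 gene symbols in the count table. All 10 passed the filter on low counts and were among the 12841 genes tested. The cells were 786-O, an established human line of clear cell renal carcinoma, and their RNA was sequenced after 24 h in DMSO, everolimus, SGI-1027 or both drugs, with 3 libraries in each of the 4 groups. Everolimus is an inhibitor of the kinase mTOR, and SGI-1027 is an inhibitor of DNA methyltransferases. SGI-1027 was given at 1.5 µM alone and in the combination, and everolimus at 5 µM in the combination. For everolimus alone the sample labels give 5 µM in one field and 10 µM in the treatment protocol, and the study's methods name the lower of these. If the protocol's value applied, the comparisons of the combination with everolimus alone would also span a difference in dose. The study reports that both drugs together, but neither alone, raised the release of lactate dehydrogenase from cells of this line. It reads this as membrane damage early in cell death. It also reports cell cycle arrest with everolimus, more so in the combination. The part of dying or arrested cells in the values given here was not tested. All groups are of a single cell line, and the sources used here do not say if replicate libraries stem from different cultures, so p-values measure only the spread between these libraries.

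Fatty acids are built from acetyl-CoA, which ACLY makes from citrate and ACSS2 makes from acetate. ACACA carboxylates acetyl-CoA to malonyl-CoA, the committed step, and FASN joins these units into palmitate, which ELOVL6 lengthens and SCD desaturates at the delta-9 position, while FADS2 and FADS1 introduce the delta-6 and delta-5 double bonds of polyunsaturated fatty acids and ACSL3 couples long-chain fatty acids to CoA. SREBF1 encodes the transcription factor SREBP-1, whose mature form activates most of these genes, and its abundance and processing are known to respond to mTOR complex 1 and to sterols. Clear cell renal carcinoma is known for its lipid-filled cytoplasm.

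The libraries held between 37046231 and 41516976 counts. All 9 genes set as marks of 786-O cells were present, with a lowest count of 584 in any library. Of 11 marker genes of leukocytes, endothelium, hepatocytes and adipocytes, 9 were in the table, none exceeded 15 counts in a library, and their summed counts per library were 20 to 26 in DMSO, 20 to 31 in everolimus, 24 to 32 in SGI-1027 and 14 to 24 in the combination. DMSO replicate 1 and SGI-1027 replicate 3 stood apart from the other libraries of their groups. Pairs with either of them had a chi-square per gene of up to 16.4, against at most 5.46 in the other pairs. Results that rest on either library are given with and without it.

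Promoter windows of 250 bases that end just before the annotated transcript start were read from the RefSeq table for GRCh38.p14, which held 14 windows for 9 of the 10 genes and none for FASN. The windows of 4 of the 5 genes that were lower in everolimus are shown, 5′ to 3′ on the strand of the gene, with capitals for a match on either strand to the NF-Y box CCAAT or the GC box GGGCGG. They lie at chr17:17836987-17837236 (minus strand, SREBF1), chr17:37406837-37407086 (minus strand, the first of 3 ACACA windows), chr10:100346983-100347232 (plus strand, SCD) and chr4:110198616-110198865 (minus strand, ELOVL6).
SREBF1: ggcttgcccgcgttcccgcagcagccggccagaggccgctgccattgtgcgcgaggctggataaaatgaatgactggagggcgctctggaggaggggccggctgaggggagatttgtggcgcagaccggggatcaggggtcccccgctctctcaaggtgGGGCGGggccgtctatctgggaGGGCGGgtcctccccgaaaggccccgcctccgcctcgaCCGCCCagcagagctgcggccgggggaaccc
ACACA: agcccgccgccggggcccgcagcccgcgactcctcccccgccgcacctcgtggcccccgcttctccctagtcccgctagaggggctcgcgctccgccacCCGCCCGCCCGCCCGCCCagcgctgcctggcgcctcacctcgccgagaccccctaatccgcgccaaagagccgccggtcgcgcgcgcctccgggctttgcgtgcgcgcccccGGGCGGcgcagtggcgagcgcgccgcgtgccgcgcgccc
SCD: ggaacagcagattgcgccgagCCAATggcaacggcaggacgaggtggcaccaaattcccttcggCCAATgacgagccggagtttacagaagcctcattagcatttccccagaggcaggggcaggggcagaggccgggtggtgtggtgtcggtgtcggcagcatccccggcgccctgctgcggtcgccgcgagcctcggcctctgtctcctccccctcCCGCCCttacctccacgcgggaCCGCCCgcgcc
ELOVL6: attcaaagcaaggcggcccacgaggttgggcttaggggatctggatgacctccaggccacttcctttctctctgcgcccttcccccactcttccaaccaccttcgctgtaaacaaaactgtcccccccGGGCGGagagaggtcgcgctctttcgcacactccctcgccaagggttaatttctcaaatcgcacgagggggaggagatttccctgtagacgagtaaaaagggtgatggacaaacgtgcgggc
The GC box occurred in 12 of the 14 windows of these genes and in 42.6% of all 35116 windows of the same length. The 2 ACLY windows overlap each other, as do the 2 FADS2 windows, so the 14 are not independent and a match in a shared stretch counts in both. SREBF1 held 3 GC boxes, the nearest 26 bases before the start, ACACA held 5 in this window, of which 4 overlapped in a single tract, SCD held 2 and ELOVL6 held 1. The NF-Y box occurred in 7 windows of 5 genes and in 32.0% of all windows. SCD held 2 NF-Y boxes, the nearer of them 182 bases before the start, whereas SREBF1, ELOVL6 and the ACACA window shown held none. The ACACA windows not shown held 1 and 2 NF-Y boxes. The letters TCACNCCAC of the sterol regulatory element core were in 0 of the 14 windows and 0.883% of all windows, and the E-box CACGTG in 0 of the 14 and 6.34%. No match of one motif overlapped a match of another. These matches describe letters in the windows and not factor binding.

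All 10 genes were detected in the DMSO group, at levels that spanned a wide range when scaled by gene length. In FPKM, ACLY was the most abundant at 121 ± 1.40 (SD, n = 3), followed by FADS2 at 88.2 ± 0.605, SCD at 69.9 ± 5.18, FASN at 52.5 ± 1.21 and FADS1 at 37.6 ± 0.635. Below them were ACSL3 at 21.7 ± 0.417, ELOVL6 at 17.8 ± 0.737, ACACA at 16.2 ± 0.591, SREBF1 at 12.9 ± 0.412 and ACSS2 at 7.14 ± 0.0385 FPKM. Each step in this order exceeded the summed SDs of the 2 genes beside it. ACLY exceeded 96.3% of the tested genes in DMSO and SCD 93.0%, whereas SREBF1 exceeded 68.1% and ACSS2 54.5%. In everolimus the means kept the DMSO order, with SREBF1 at 9.45 ± 0.443 and ELOVL6 at 12.1 ± 0.350 FPKM. In the combination SCD reached 103 ± 2.50 FPKM, above FADS2 at 96.0 ± 0.722, and in SGI-1027 SREBF1 at 14.3 ± 1.51 FPKM was above ELOVL6 at 11.4 ± 0.684.

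**Figure D1:**
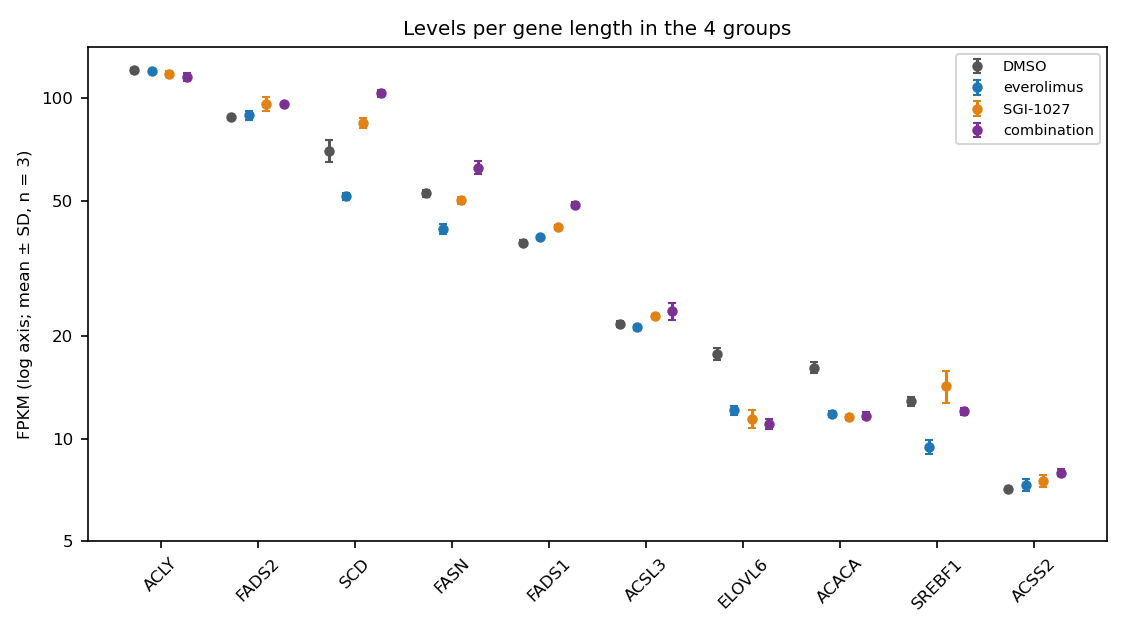
Level of each of the 10 genes in FPKM (vertical axis, log scale) in the 4 groups, as mean and SD of 3 libraries, ordered by the DMSO level. ACLY sits near 121 FPKM in DMSO and ACSS2 near 7.14, and SCD moves from 51.5 in everolimus to 103 in the combination.

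Levels are next given as CPM, counts scaled to a common library size by TMM factors, which suits comparison of a gene between libraries and not between genes. Overlap of libraries between groups is stated for the 10 genes as a description only. The share of all tested genes without overlap was not counted. The question put to each gene was whether its transcript differed between each drug treatment and DMSO, and whether the combination differed from the drugs taken singly. In everolimus alone, 5 of the 10 genes were lower than in DMSO (SREBF1, FASN, ACACA, SCD and ELOVL6) and 0 were higher, at an adjusted p under 0.05 with edgeR. With DESeq2, or at an unadjusted p under 0.05, the number higher was also 0. Across all tested genes 29.2% were called lower and 27.2% higher in this comparison, so the members' share was above the background for lower calls and below it for higher calls, a difference that was not tested. With upper-quartile factors instead of TMM the background split was 34.9% higher and 22.6% lower, and the members' count was 1 higher and 5 lower. In SGI-1027 alone, 4 genes were higher (SREBF1, SCD, FADS1 and FADS2) and 2 lower (ACACA and ELOVL6), beside 32.0% of all tested genes higher and 30.6% lower. The members' shares were close to that background. In the combination, 6 genes were higher than in DMSO (FASN, SCD, FADS1, FADS2, ACSS2 and ACSL3) and 3 lower (ACACA, ELOVL6 and ACLY), beside 32.8% higher and 33.4% lower among all tested genes. The share of lower members was close to the background and that of higher members above it, again without a test. Without combination replicate 1 the count in the combination was 3 higher and 2 lower, beside 30.8% of all tested genes higher and 30.7% lower. The share of higher members was then close to the background.

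The changes were moderate in size. None of the 10 genes was past a 2-fold change in either direction (1 on the log2 scale, with an unadjusted p under 0.05) in any comparison with DMSO, which 4.79% of tested genes passed in everolimus, 7.33% in SGI-1027 and 9.96% in the combination. The median log2 fold change of the 10 genes was -0.19 in everolimus, 0.08 in SGI-1027 and 0.10 in the combination, beside 0.00, 0.02 and 0.01 over all tested genes. The 3 comparisons share the DMSO libraries and are therefore not independent of one another.

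**Figure D2:**
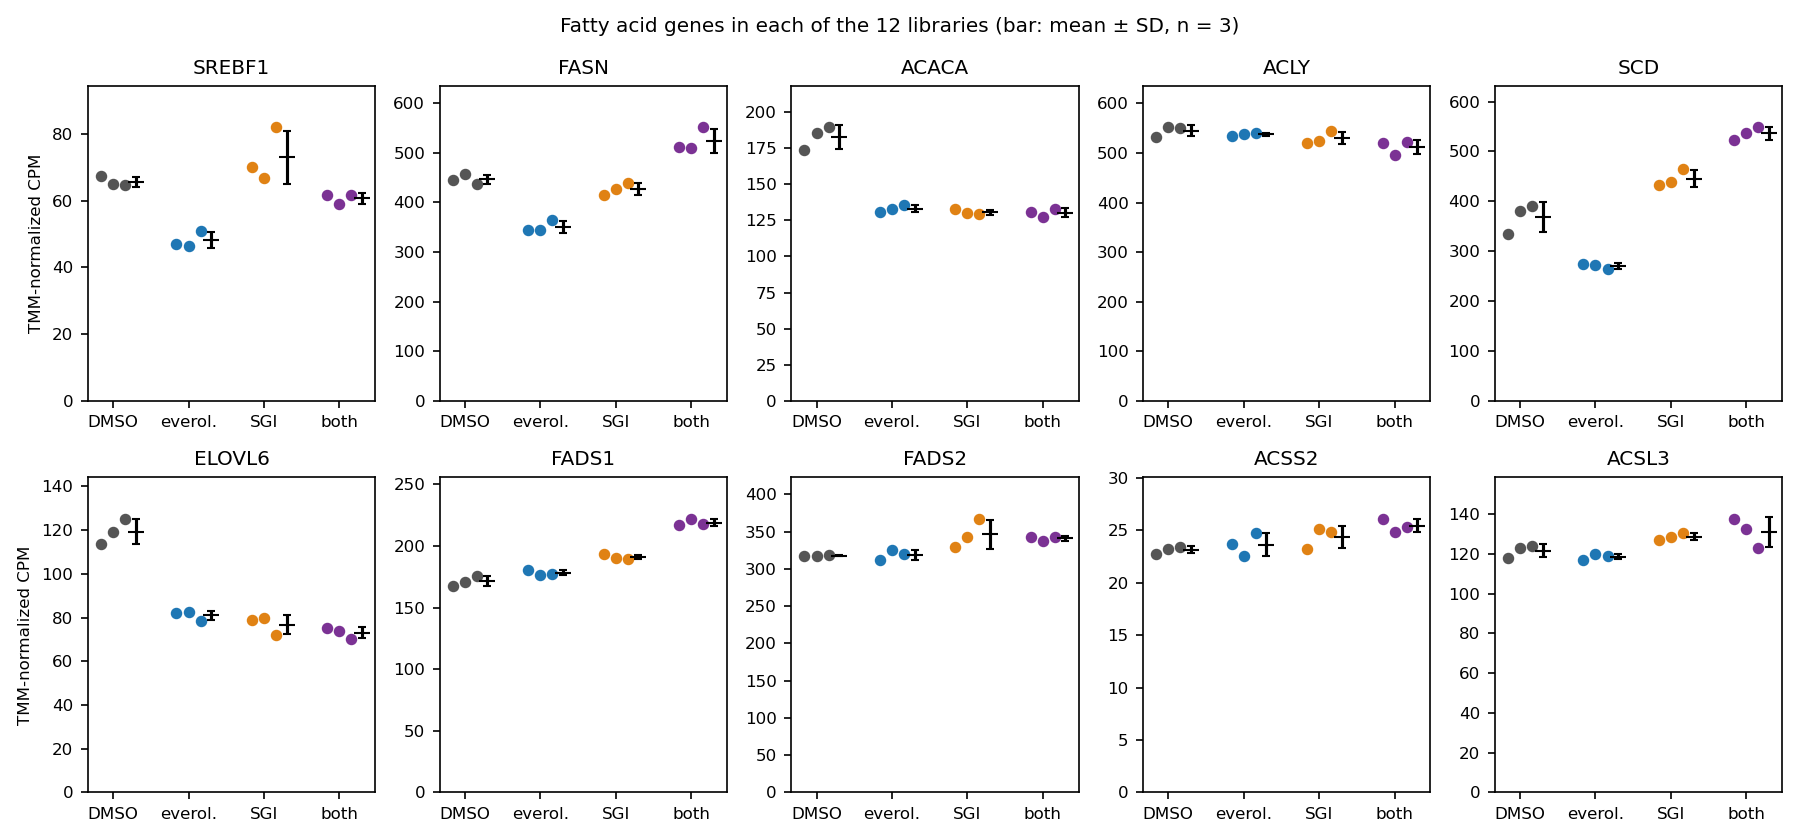
TMM-normalized CPM (vertical axes from 0) of each gene in the 12 libraries. Points are libraries and bars are mean ± SD of 3. ACACA and ELOVL6 are below DMSO in all 9 treated libraries, whereas SCD is lowest in the everolimus libraries, at 264 to 274 CPM, and highest in the combination libraries, at 523 to 549 CPM.

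SREBF1, the transcription factor of the pathway, was lower in everolimus. Its normalized CPM was 67.5, 65.0 and 64.7 in the DMSO libraries and 47.1, 46.5 and 50.8 in the everolimus libraries. It was 70.1, 66.7 and 82.1 in SGI-1027 and 61.6, 58.9 and 61.7 in the combination. The everolimus libraries lay below all others, and the SGI-1027 group overlapped DMSO, with its replicate 3 well above the rest. SREBF1 fell in everolimus with a log2 fold change of -0.45 ± 0.06 (SE; adjusted p = 9.20e-06), from 65.7 ± 1.51 to 48.2 ± 2.35 CPM (SD, n = 3). In the combination the value was -0.11 with a 95% interval of -0.25 to 0.02 (adjusted p = 0.117), although the 3 combination libraries did not overlap the DMSO libraries. Without SGI-1027 replicate 3 this value was -0.11 with an adjusted p of 0.0285.

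The rise of SREBF1 in SGI-1027 was small, at 0.15 ± 0.06 (SE; adjusted p = 0.0431). Without SGI-1027 replicate 3 the value was 0.06 (adjusted p = 0.337). Leaving out DMSO replicate 2 also ended the call (0.15, adjusted p = 0.0972), as did DMSO replicate 3 (0.14, adjusted p = 0.0932). Everolimus replicate 1, everolimus replicate 2 and combination replicate 3 are outside the 2 groups compared. Leaving out each of them gave adjusted p values of 0.0551, 0.0528 and 0.0527, with the filter, scaling and shared spread estimated anew. The call also ended with all libraries kept, at an adjusted p of 0.0558 with DESeq2, 0.0619 without the filter, 0.109 in a fit of only the 2 groups, and 0.0740 and 0.0717 with limma-trend at pseudocounts of 1 and 0.1.

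ACLY and ACSS2, which supply acetyl-CoA, differed little between groups. ACLY was at 532, 552 and 549 CPM in DMSO and 535, 538 and 541 in everolimus. It was 520.5, 525 and 544 in SGI-1027 and 519, 496 and 522 in the combination. The ranges of the single drugs overlapped DMSO and those of the combination lay just under it. ACLY was -0.02 in everolimus (95% interval -0.09 to 0.05), -0.04 in SGI-1027 (95% interval -0.11 to 0.03), which became 0.056 and 0.014 with upper-quartile factors, and -0.09 ± 0.03 in the combination (SE; adjusted p = 0.0301). The combination call of ACLY was lost without DMSO replicate 2 or 3 or combination replicate 1 or 2, where adjusted p was 0.126, 0.108, 0.0546 and 0.192. With upper-quartile factors the combination value was -0.03 (adjusted p = 0.409), and the call was also lost under a stricter filter of 10 counts per library, in a fit of only the 2 groups and with limma-trend at pseudocounts of 1 and 0.1, at adjusted p = 0.0588, 0.0656, 0.0508 and 0.0573.

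ACSS2 was the least abundant of the genes per length. Its CPM was 22.8, 23.3 and 23.4 in DMSO, 23.7, 22.5 and 24.7 in everolimus, 23.2, 25.1 and 24.9 in SGI-1027 and 26.1, 24.9 and 25.3 in the combination. The combination libraries lay above DMSO by a narrow margin, and the single-drug libraries overlapped it. The log2 fold change in the combination was 0.14 ± 0.06 (SE; adjusted p = 0.0468), and the call was lost with 9 of the 12 libraries left out in turn, with adjusted p between 0.0507 (combination replicate 2) and 0.119 (combination replicate 1). The other 7 of these libraries were DMSO replicates 1, 2 and 3, everolimus replicate 1, SGI-1027 replicates 2 and 3 and combination replicate 3. It was also lost with DESeq2, without the filter and in a fit of only the 2 groups, at adjusted p = 0.0610, 0.1253 and 0.0520. In everolimus it was 0.03 with a 95% interval of -0.09 to 0.15, and in SGI-1027 0.07 with a 95% interval of -0.05 to 0.20.

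ACACA, the acetyl-CoA carboxylase of the committed step, was lower by about the same amount in all 3 treated groups. The DMSO libraries had 174, 185 and 189.6 CPM and the everolimus libraries 131, 133 and 136. The values were 133, 129.8 and 129.7 in SGI-1027 and 131, 127 and 133 in the combination. All 9 treated libraries fell between 127 and 136 CPM, below all 3 DMSO libraries, and the treated groups overlapped each other. The log2 fold change was -0.46 ± 0.04 in everolimus (SE; adjusted p = 2.45e-08), -0.48 ± 0.04 in SGI-1027 (adjusted p = 7.39e-09) and -0.49 ± 0.04 in the combination (adjusted p = 4.73e-09). The combination differed from everolimus by -0.03 (95% interval -0.11 to 0.05) and from SGI-1027 by -0.0043 (95% interval -0.09 to 0.08).

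FASN, the synthase that makes palmitate, went down with everolimus alone and up with both drugs. Its CPM was 444, 456 and 437 in DMSO and 344, 344 and 365 in everolimus. In SGI-1027 it was 414, 427 and 439 and in the combination 511, 509 and 551. Everolimus libraries were the lowest and combination libraries the highest, with no overlap between either group and DMSO, whereas SGI-1027 overlapped DMSO. FASN fell by 0.35 on the log2 scale in everolimus (SE 0.04, adjusted p = 9.42e-07) and rose by 0.23 in the combination (SE 0.04, adjusted p = 5.83e-05). In SGI-1027 alone the value was -0.06 with a 95% interval of -0.15 to 0.02 (adjusted p = 0.178).

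ELOVL6, which elongates palmitate, showed the largest fall of the 10 genes in each treated group. Its CPM was 114, 119 and 125 in DMSO, 82.0, 82.4 and 78.6 in everolimus, 78.8, 79.6 and 71.9 in SGI-1027 and 75.1, 74.0 and 70.2 in the combination. Every treated library lay below every DMSO library. The log2 fold change was -0.56 ± 0.05 in everolimus (SE; adjusted p = 2.98e-08), -0.64 ± 0.05 in SGI-1027 (adjusted p = 3.64e-09) and -0.71 ± 0.05 in the combination (adjusted p = 6.25e-10). In linear terms the combination mean was 0.612 of the DMSO mean.

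SCD, the delta-9 desaturase that makes oleate, had the widest span among the groups. Its CPM was 334, 381 and 390.4 in DMSO and 274, 273 and 264 in everolimus. The SGI-1027 libraries had 434, 438 and 465 and the combination libraries 523, 536 and 549. The 4 groups formed an order of everolimus, DMSO, SGI-1027 and combination, with no overlap between any of them, and DMSO replicate 1 was the lowest of its group. SCD fell by 0.45 in everolimus on the log2 scale (SE 0.05, adjusted p = 5.01e-07), rose by 0.27 in SGI-1027 (SE 0.05, adjusted p = 9.30e-05) and rose by 0.54 in the combination (SE 0.05, adjusted p = 2.11e-08). Without DMSO replicate 1 these values were -0.52, 0.21 and 0.48, all still called.

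FADS1, the delta-5 desaturase, rose in SGI-1027 and further in the combination. Its CPM was 168, 171 and 176 in DMSO, 181, 176 and 177 in everolimus, 193, 191 and 189.7 in SGI-1027 and 217, 222 and 218 in the combination. The groups did not overlap, although the everolimus libraries were only just above DMSO. The log2 fold change was 0.16 ± 0.03 in SGI-1027 (SE; adjusted p = 6.69e-04) and 0.35 ± 0.03 in the combination (adjusted p = 4.91e-08), and in everolimus it was 0.06 with a 95% interval of -0.02 to 0.13 (adjusted p = 0.181). With upper-quartile factors the everolimus value was 0.13 and was called (adjusted p = 0.00334). FADS1 and FADS2 lie on opposite strands and their annotated spans overlap at the 5′ ends, and whether counting used strand is not given in the sources used here, so some of their reads may be shared.

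FADS2, the delta-6 desaturase, had close values in DMSO and everolimus and was slightly higher in SGI-1027 and the combination. Its CPM was 317, 317 and 319 in DMSO, 311, 325 and 321 in everolimus, 329.6, 342 and 367 in SGI-1027 and 343, 337 and 342 in the combination. All SGI-1027 and combination libraries were above the DMSO libraries. The changes were 0.13 ± 0.04 in SGI-1027 (SE; adjusted p = 0.00926) and 0.10 ± 0.04 in the combination (adjusted p = 0.0279), and everolimus gave 0.01 (95% interval -0.08 to 0.09). The SGI-1027 call was lost without SGI-1027 replicate 3 (0.08, adjusted p = 0.0563). The combination call was lost without DMSO replicate 2, combination replicate 1 or combination replicate 3, at adjusted p = 0.0543, 0.0574 and 0.0650, and also without the filter on low counts (adjusted p = 0.0728).

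ACSL3, a long-chain acyl-CoA synthetase of the endoplasmic reticulum and lipid droplets, had 118, 123 and 124 CPM in DMSO and 117, 119.9 and 119 in everolimus. The SGI-1027 libraries had 127, 129 and 131 and the combination libraries 138, 132 and 123. The combination was the most spread of these groups and overlapped DMSO. Its log2 fold change was 0.11 ± 0.04 (SE; adjusted p = 0.0334), and it was no longer called without DMSO replicate 1 (0.09, adjusted p = 0.0978), combination replicate 1 (0.08, adjusted p = 0.159) or combination replicate 2 (0.11, adjusted p = 0.0768), nor without the filter on low counts (adjusted p = 0.0839). In everolimus it was -0.04 (95% interval -0.13 to 0.05) and in SGI-1027 0.08 (95% interval -0.01 to 0.17), and with upper-quartile factors 0.038 and 0.14, the latter called (adjusted p = 0.00933).

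**Figure D3:**
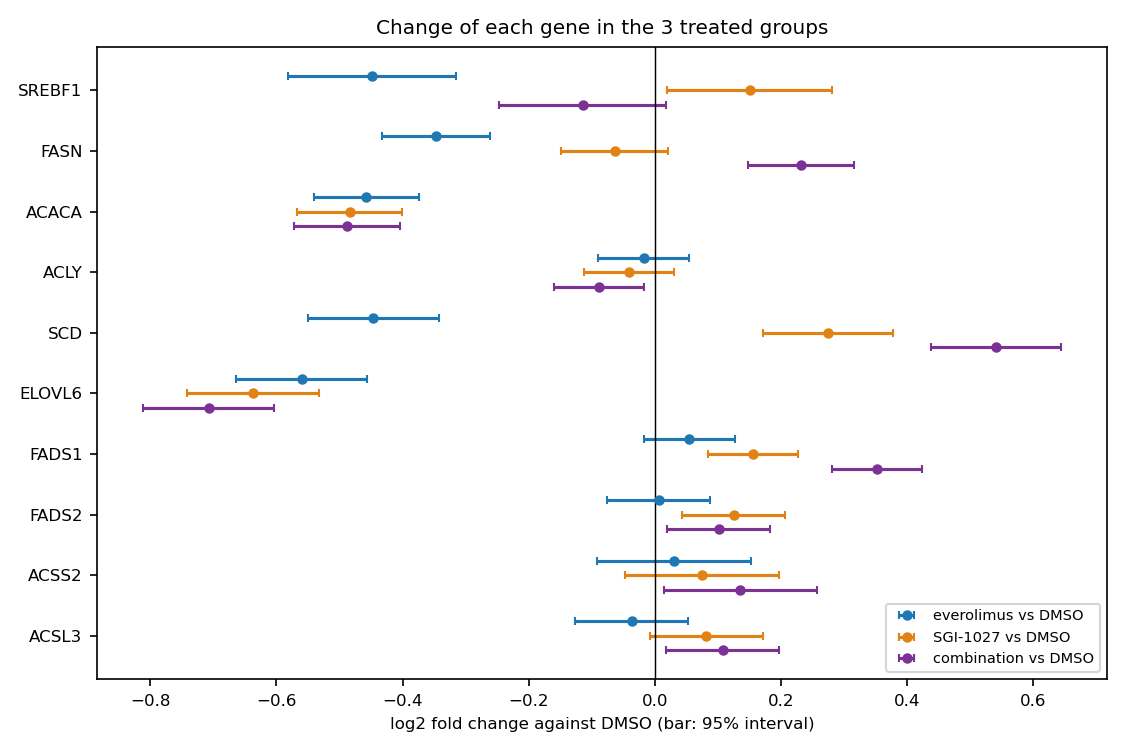
Log2 fold change of each gene against DMSO in the 3 treated groups (horizontal axis), with 95% intervals from the edgeR fit. All 3 values lie below 0 for ACACA (between -0.49 and -0.46) and ELOVL6 (between -0.71 and -0.56), whereas FASN and SCD are below 0 in everolimus and above it in the combination.

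The combination was next set against each single drug. Against everolimus, 5 genes were higher (SREBF1, FASN, SCD, FADS1 and ACSL3) and 1 lower (ELOVL6), beside 20.1% of tested genes higher and 19.2% lower. SCD rose by 0.99 on the log2 scale (SE 0.05, adjusted p = 2.06e-11), which is 1.98-fold, and FASN by 0.58 (SE 0.04, adjusted p = 1.96e-09). SREBF1 was higher by 0.33 (adjusted p = 3.72e-04), FADS1 by 0.30 (adjusted p = 1.40e-06) and ACSL3 by 0.14 (adjusted p = 0.0116). The ACSL3 call was lost without combination replicate 1 (0.11, adjusted p = 0.0656). ELOVL6 was lower, at -0.15 (adjusted p = 0.0254), a call that was lost without everolimus replicate 1 or 2 or combination replicate 2 or 3, at adjusted p = 0.0811, 0.0873, 0.0605 and 0.114, and with limma-trend at pseudocounts of 1 and 0.1 (adjusted p = 0.0618 and 0.0596). FADS2 was 0.10 (adjusted p = 0.0590), and was called without DMSO replicate 1 (adjusted p = 0.0390), SGI-1027 replicate 1 (adjusted p = 0.0453) or SGI-1027 replicate 3 (adjusted p = 0.0184). FADS2 was also called with DESeq2 (adjusted p = 0.0496), in a fit of only the 2 groups (adjusted p = 0.00483) and with limma-trend at pseudocounts of 1 and 0.1 (adjusted p = 0.0285 and 0.0298). ACLY was -0.07 (adjusted p = 0.113), and was called lower with upper-quartile factors (-0.09, adjusted p = 0.0431).

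Against SGI-1027, 3 genes were higher in the combination (FASN, SCD and FADS1) and 1 lower (SREBF1), beside 9.40% of tested genes higher and 10.2% lower. With limma-trend on log2(FPKM + 1) that background was 11.4% higher and 8.11% lower. FASN was higher by 0.30 ± 0.04 (SE; adjusted p = 3.33e-05), SCD by 0.27 ± 0.05 (adjusted p = 6.90e-04) and FADS1 by 0.20 ± 0.03 (adjusted p = 3.98e-04). SREBF1 was lower, at -0.27 (adjusted p = 0.00528), and without SGI-1027 replicate 3 at -0.17 (adjusted p = 0.0173). The transcript of the transcription factor moved down on adding everolimus to SGI-1027 in the same libraries in which FASN, SCD and FADS1 moved up.

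The interaction contrast asked whether the log2 change in the combination differed from the sum of the single-drug changes, which is the same as asking whether everolimus acted differently with and without SGI-1027. It was above 0 for 5 genes (FASN, ACACA, SCD, ELOVL6 and FADS1) and below 0 for 0 (also 0 with DESeq2 and at an unadjusted p under 0.05), beside 23.6% of tested genes above and 22.1% below. With upper-quartile factors the background was 18.2% above and 27.9% below, and 4 of these 5 calls held, all but FADS1. SCD had 0.71 ± 0.07 (SE; adjusted p = 2.37e-07) and FASN 0.64 ± 0.06 (adjusted p = 7.69e-08). For both genes the sign of the everolimus effect was opposite without and with SGI-1027, from -0.45 to 0.27 for SCD and from -0.35 to 0.30 for FASN.

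ELOVL6 (0.49 ± 0.07, SE; adjusted p = 2.00e-05) and ACACA (0.45 ± 0.06, adjusted p = 4.10e-06) had positive interactions of another kind. Both were lower in either drug alone, and everolimus on top of SGI-1027 changed them by -0.07 (95% interval -0.18 to 0.04) and -0.0043 (95% interval -0.09 to 0.08). FADS1 was at 0.14 ± 0.05 (SE; adjusted p = 0.0233), and its call was lost without DMSO replicate 3, everolimus replicate 2 or combination replicate 2, at adjusted p = 0.0600, 0.0528 and 0.0575. SREBF1 was at 0.18 (95% interval -0.00 to 0.37, adjusted p = 0.102), and at 0.28 (adjusted p = 0.00187) without SGI-1027 replicate 3. The intervals of ACLY (-0.13 to 0.07), FADS2 (-0.15 to 0.09), ACSS2 (-0.14 to 0.20) and ACSL3 (-0.06 to 0.19) covered 0. The members' median interaction was 0.16, beside -0.01 over all tested genes.

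**Figure D4:**
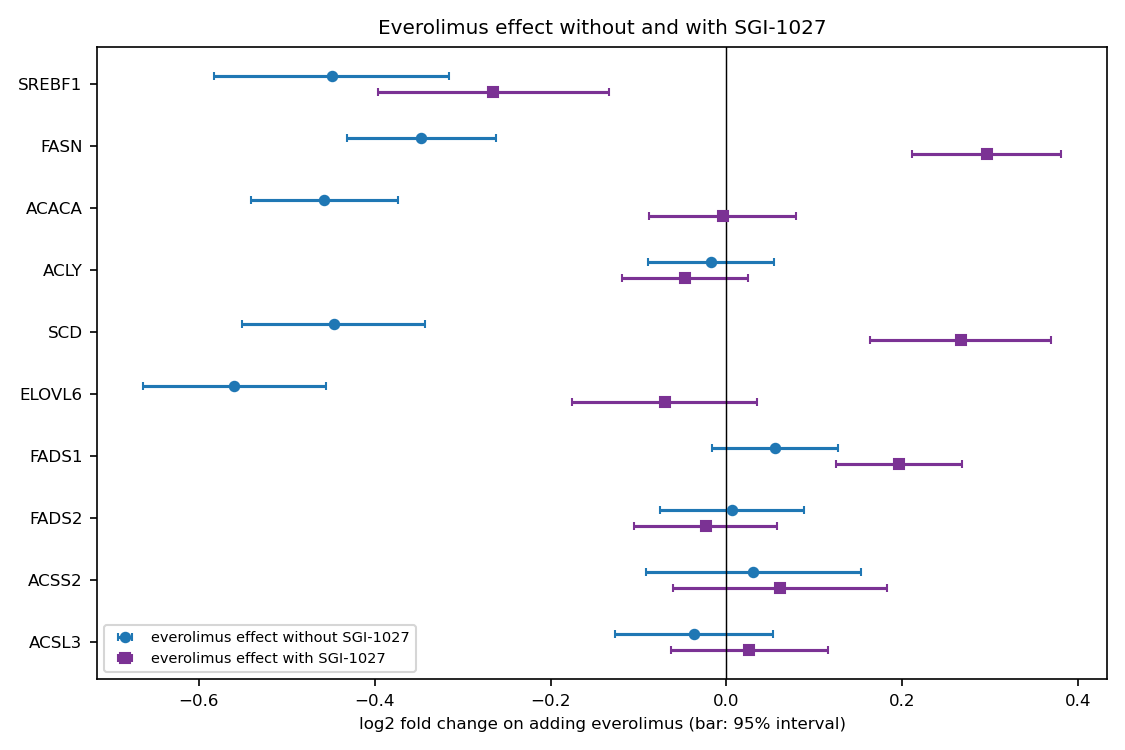
Log2 fold change on adding everolimus without SGI-1027 (everolimus against DMSO, circles) and with it (combination against SGI-1027, squares), with 95% intervals from the edgeR fit. The values of FASN and SCD lie on opposite sides of 0, and those of ACACA and ELOVL6 go from -0.46 and -0.56 to -0.0043 and -0.07.

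Genes around the pathway were taken from 6 lists, whose counts are to be read beside 27.2% of all tested genes higher and 29.2% lower in everolimus, 32.0% and 30.6% in SGI-1027, and 32.8% and 33.4% in the combination. Of 14 tested genes that control SREBP proteins or lipogenic transcription, 3 were higher and 4 lower in everolimus, 5 and 3 in SGI-1027, and 4 and 1 in the combination. SREBF2, the SREBP gene tied to cholesterol synthesis, rose in all 3 groups, with log2 fold changes of 0.34, 0.48 and 0.55 (adjusted p = 1.11e-06, 1.02e-08 and 1.24e-09), whereas SREBF1 fell in everolimus. INSIG1, a sterol-regulated retention protein of the SREBPs, was at 0.03 in everolimus (adjusted p = 0.686) and rose by 0.23 in SGI-1027 and 0.77 in the combination (adjusted p = 0.00413 and 4.42e-09). INSIG2, its paralog, rose by 0.49, 0.47 and 0.64 (adjusted p = 8.41e-04, 9.61e-04 and 4.00e-05). LPIN1, a phosphatidate phosphatase that acts on SREBP downstream of mTOR, was -0.30 in everolimus, -0.12 in SGI-1027 and 0.04 in the combination (adjusted p = 5.69e-05, 0.0421 and 0.494), and its interaction was 0.46 (adjusted p = 3.91e-05). In the list 5 of 14 genes were higher and 0 lower in the combination than in everolimus, beside 20.1% and 19.2% of all tested genes.

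Of 9 tested genes of precursor supply, 1 was higher and 4 lower in everolimus, 1 and 5 in SGI-1027, and 2 and 4 in the combination. CS, citrate synthase, fell by 0.46, 0.59 and 0.60 on the log2 scale (adjusted p = 6.87e-09, 1.60e-10 and 7.50e-11), and ME1, the cytosolic malic enzyme that makes NADPH, by 0.16, 0.32 and 0.39 (adjusted p = 0.0289, 1.95e-04 and 1.81e-05). SLC25A1, the mitochondrial citrate carrier, rose by 0.23, 0.25 and 0.23 (adjusted p = 2.89e-04, 1.02e-04 and 2.08e-04). Of 16 tested genes of elongation and desaturation beyond the 10, 1 was higher and 6 lower in everolimus, 2 and 6 in SGI-1027, and 3 and 7 in the combination. ELOVL2, an elongase of polyunsaturated fatty acids, was lower, at -0.59, -0.90 and -0.93 (adjusted p = 0.00356, 8.22e-05 and 5.08e-05), and HACD2, a dehydratase of the elongation cycle, was at -0.37, -0.59 and -0.76 (adjusted p = 1.75e-05, 4.74e-08 and 1.29e-09). SCD5, the other human stearoyl-CoA desaturase, was -0.21 and -0.19 in the single drugs (adjusted p = 0.0617 and 0.0809) and was lower in the combination, at -0.51 (adjusted p = 1.17e-04), where SCD was higher than in DMSO.

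Among 17 tested genes of fatty acid activation and esterification, 6 were higher and 5 lower in everolimus, 4 and 4 in SGI-1027, and 6 and 5 in the combination. GPAT3, a glycerol-3-phosphate acyltransferase, was lower, at -0.81, -1.08 and -1.18 (adjusted p = 3.51e-08, 6.25e-10 and 1.32e-10) and the mitochondrial GPAM was at -0.39, -0.63 and -0.64 (adjusted p = 1.64e-05, 3.69e-08 and 2.34e-08). ACSS1, the mitochondrial acetyl-CoA synthetase, rose by 0.74 in the combination (adjusted p = 2.04e-04) and was 0.21 and -0.02 in the single drugs (adjusted p = 0.241 and 0.926). Of 16 tested genes of beta-oxidation, 7 were higher and 3 lower in everolimus, 6 and 5 in SGI-1027, and 5 and 6 in the combination, beside shares of all tested genes between 27.2% and 33.4%. CPT1A, the carnitine palmitoyltransferase that malonyl-CoA inhibits, rose by 1.43, 1.50 and 1.92 (adjusted p = 3.75e-08, 1.20e-08 and 2.38e-10), on 93 to 414 counts per library. CPT1B, its muscle-type paralog, rose by 0.85, 1.25 and 1.38 (adjusted p = 5.39e-08, 1.63e-10 and 2.54e-11). ETFDH, which passes electrons from fatty acid oxidation to ubiquinone, was -0.28 in everolimus (adjusted p = 0.167) and fell in SGI-1027 and the combination, at -0.49 and -0.71 (adjusted p = 0.0177 and 0.00144).

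The list of lipid droplet and uptake genes had 12 tested members, of which 1 was higher and 8 lower in everolimus, 4 and 5 in SGI-1027, and 5 and 3 in the combination. Against everolimus, 7 of the 12 were higher and 3 lower in the combination, beside 20.1% and 19.2% of all tested genes. The interaction was above 0 for 6 and below 0 for 1, beside 23.6% and 22.1%. None of these differences from the background was tested. G0S2, an inhibitor of the triglyceride lipase ATGL, fell by 0.34 in everolimus and rose by 0.64 in SGI-1027 and 1.77 in the combination (adjusted p = 1.92e-05, 3.29e-09 and 2.67e-15). Its interaction was 1.47 (adjusted p = 4.91e-11), and its signs in the 3 groups were those of SCD. FABP5, a fatty acid binding protein, fell by 0.74, 0.74 and 0.55 (adjusted p = 2.10e-09, 1.33e-09 and 4.45e-08). LIPE, hormone-sensitive lipase, had only 10 to 54 counts per library. It was -0.19 in everolimus (adjusted p = 0.651), -1.05 in SGI-1027 (adjusted p = 0.0155) and -1.32 in the combination (adjusted p = 0.00392). PLIN2 and MGLL, named here after their values were seen, had the same signs as FASN in everolimus and the combination, at -0.36 and 0.17 for PLIN2 (adjusted p = 2.47e-07 and 6.48e-04) and -0.37 and 0.45 for MGLL (adjusted p = 3.39e-06 and 1.39e-07). In SGI-1027 MGLL was higher, at 0.11 (adjusted p = 0.0442), unlike FASN. Others of the list, also named after their values were seen, differed from FASN. PLIN3 was lower in both groups (-0.18 and -0.45, adjusted p = 5.57e-04 and 8.40e-09). PNPLA2 was higher in both (0.41 and 0.19, adjusted p = 2.12e-04 and 0.0368). The list medians in everolimus, SGI-1027 and the combination were -0.03, 0.01 and 0.06 for SREBP control, -0.11, -0.11 and -0.03 for precursor supply, and -0.11, -0.11 and -0.15 for elongation and desaturation. They were 0.04, 0.05 and -0.01 for activation and esterification, 0.14, -0.02 and -0.12 for beta-oxidation, and -0.26, -0.02 and 0.14 for lipid droplets and uptake. These medians had no test.

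**Figure D5:**
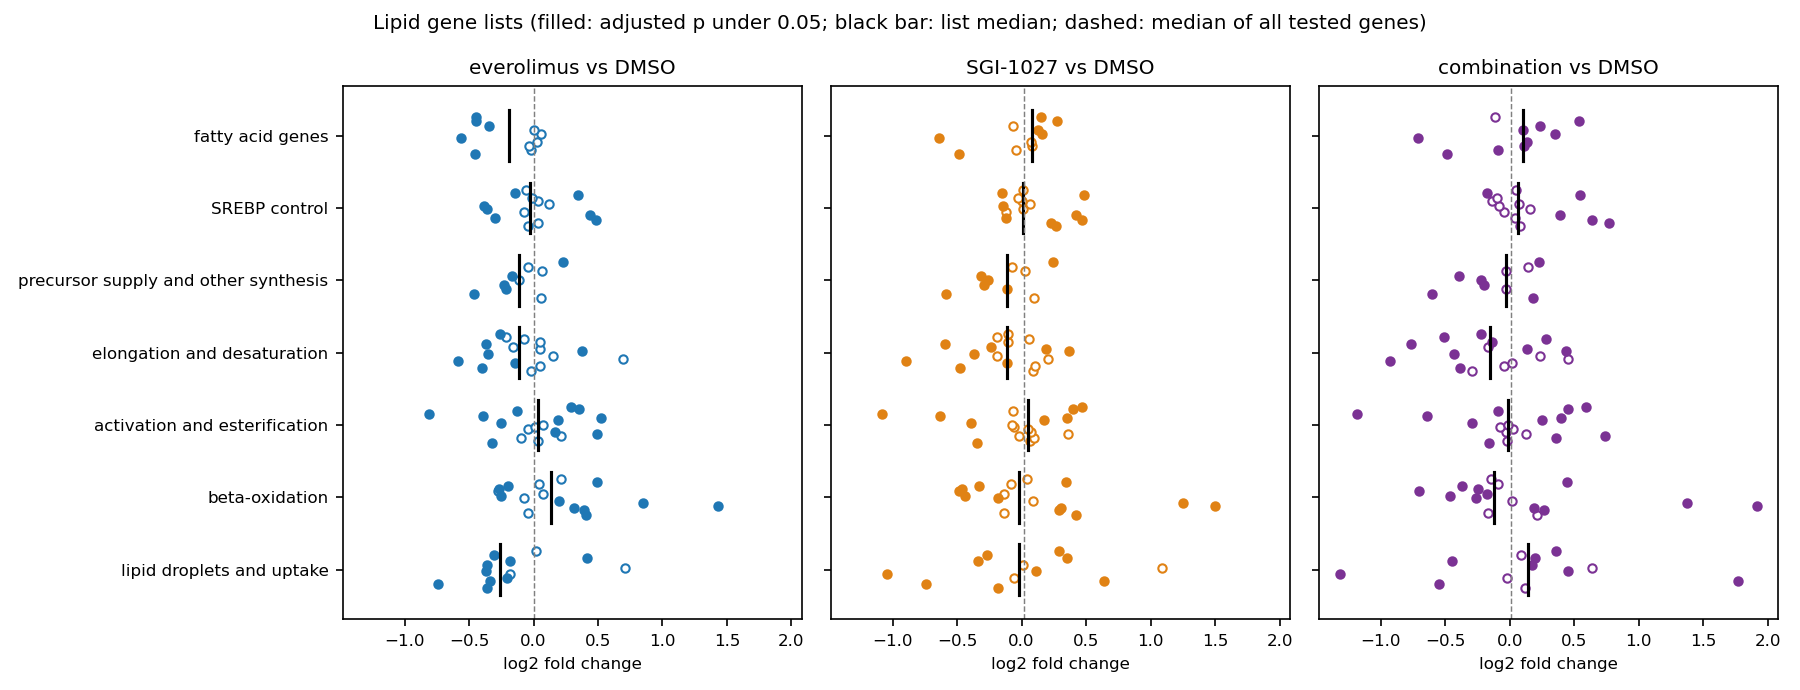
Log2 fold change against DMSO (horizontal axis) of every tested gene of the 10 and of the 6 surrounding lists, with 1 panel for each treated group. Filled points passed an adjusted p under 0.05, black bars are list medians and the dashed line is the median of all tested genes. The 10 genes have a median of -0.19 in everolimus and 0.10 in the combination.

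The genes most like SREBF1 and ELOVL6 in their 3 log2 fold changes against DMSO were sought among 10236 other genes with a mean of at least 5 CPM, by the root mean square difference over the 3 comparisons, which share the DMSO libraries. For SREBF1 they were TBX15 (0.0769), SESN2 (0.0972), PAX8 (0.0972), ZNF367 (0.103) and ZNF503 (0.105). For ELOVL6, the member with the largest change in the combination, they were CCT7 (0.0132), VDAC1 (0.0133), HAT1 (0.0187), SNRPD1 (0.0209) and CCT4 (0.0218). CCT7 and CCT4 encode subunits of the chaperonin TRiC, VDAC1 a channel of the outer mitochondrial membrane, HAT1 a histone acetyltransferase and SNRPD1 a core protein of spliceosomal snRNPs. None of these 10 genes was in the lists of lipid genes. The likeness is a description of 3 values for each gene and had no test. For SREBF1 the SGI-1027 value was 0.15 with all libraries and 0.06 without SGI-1027 replicate 3. The search was not repeated without that library.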

How the data were processed

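RNA of 786-O cells was sequenced in 12 libraries, 3 in each of the groups DMSO, everolimus, SGI-1027 and combination, which were assigned from the sample labels. Raw whole-number counts by gene symbol and FPKM values of the same libraries are what the authors deposited. In all 13244 genes with a count in every library, the deposited FPKM was the count scaled by 1 gene length per gene and the total count. The submitters' processing notes name only a mouse build (GRCm38, mm10), although the symbols are human, and the aligner, counter, annotation and use of strand are not given in the sources used here. The kit is named differently in the labels and in the paper's methods. The 10 genes, the surrounding lists and the tests were chosen with earlier results of these data known.

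The test was edgeR 4.0.16 run in R 4.3.3. Among 17085 genes, 12841 passed filterByExpr with the 4 groups and 4244 were not tested. Libraries were scaled by TMM, and all 12 entered a quasi-likelihood fit of group means with a prior count of 0.125, from which the 6 contrasts were taken. P-values were adjusted by Benjamini-Hochberg across every tested gene, and a gene was called at an adjusted p under 0.05. Errors are SDs of normalized CPM or FPKM, or standard errors of log2 fold changes. Libraries held 37046231 to 41516976 counts. The spread between libraries includes counting error, and the 2 were not separated. Replicate numbers did not pair libraries across groups. On simulated counts for the everolimus comparison over 12580 genes, 79 of 100 genes changed by 0.5 on the log2 scale and 88 of 100 changed by 1 were recovered, with 15 false calls. For the interaction over 12583 genes, 66 and 84 of 100 were recovered, with 7 false calls. Each size of change was given to 100 genes, whereas 7237 genes were called in the everolimus comparison and 5861 in the interaction. Recovery with that many changed genes was not tested.

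Alternatives were DESeq2 1.42.0, upper-quartile factors, no filter, at least 10 counts in every library, a replicate block, a fit of only the groups compared, limma-trend (limma 3.58.1) on log2(FPKM + 1) and log2(FPKM + 0.1), a 2-fold cut-off, and each library left out in turn. Of the surrounding lists the 3 genes with the largest called change in the combination are named, plus SREBF2, INSIG1, SCD5, LPIN1 and CPT1A, and any other gene is marked as chosen after its values were seen. Promoter windows are from RefSeq (GRCh38.p14).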

Additional observations from a re-analysis of the deposited data

Results flagged for a closer look

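In 5 of the 10 genes the effect of everolimus differed with and without SGI-1027, by the interaction term of the edgeR fit over the 12 libraries. All 5 differences were above 0, beside 23.6% of all tested genes called above 0 and 22.1% below, so such calls were common among all genes. The difference on the log2 scale was 0.71 for SCD, 0.64 for FASN, 0.49 for ELOVL6, 0.45 for ACACA and 0.14 for FADS1, with adjusted p values of 2.37e-07, 7.69e-08, 2.00e-05, 4.10e-06 and 0.0233. For SCD and FASN the effect of everolimus was negative without SGI-1027 and positive with it. The single libraries of the groups compared did not overlap in either case, but the share of all tested genes without overlap was not counted. For ELOVL6 and ACACA it was negative without SGI-1027 and close to 0 with it. The part of cell death under both drugs in these 5 differences was not tested. The labels give 2 doses for everolimus alone, of which the study's methods name the lower, and the part of a dose difference in these values was not tested.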

How the results depend on the processing

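Of the 60 values made up of 10 genes in 6 comparisons, 35 were called, and 26 of these kept their call and direction under all of the up to 20 alternatives tried. The other 9 lost the call under at least 1 alternative and 0 changed sign while called. Those 26 include all the calls of FASN, ACACA and SCD and the calls of ELOVL6 other than the one against everolimus. Of the 12841 tested genes, 7237 were called in everolimus, 8040 in SGI-1027 and 8496 in the combination. The combination had 5043 called against everolimus and 2518 against SGI-1027, and the interaction had 5861. How many calls over all genes hold under the alternatives was not counted. A 2-fold cut-off with an unadjusted p under 0.05 left 0 of the 10 genes in each of the 6 comparisons. Among all tested genes it left 615 in everolimus, 941 in SGI-1027, 1279 in the combination, 501 in the combination against everolimus, 211 in the combination against SGI-1027 and 740 in the interaction. With each library left out in turn, the number of the 10 genes called in the combination ranged from 5 (without combination replicate 1) to 9.

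Values close to 0 changed sign, all of them uncalled. With upper-quartile factors, which move the median of all genes by at most 0.074, ACLY was at 0.056 and ACSL3 at 0.038 in everolimus, ACLY at 0.014 in SGI-1027, and ACSS2 at -0.042 and ACSL3 at -0.010 in the interaction. Without the filter FADS2 was at -0.0053 in everolimus. ACACA in the combination against SGI-1027 was at 0.0029 with DESeq2, 0.0014 without the filter, and 0.015 and 0.016 with limma-trend at pseudocounts of 1 and 0.1. With each library left out in turn, FADS2 in everolimus ranged from -0.0080 to 0.022 and ACSS2 from -0.0027 to 0.064. In the combination against SGI-1027, ACACA ranged from -0.019 to 0.016, FADS2 from -0.058 to 0.021 and ACSL3 from -0.0085 to 0.070. In the interaction, FADS2 ranged from -0.064 to 0.015 and ACSS2 from -0.0035 to 0.064. The cause of these changes was not tested.

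With the replicate number as a block, 7 of the 10 genes were called in the combination, as ACSS2 (adjusted p = 0.0589) and ACSL3 (adjusted p = 0.0501) were not called, and the counts in the other 5 comparisons stayed at 5, 6, 6, 4 and 5. In that fit 32.3% of all tested genes were higher and 32.9% lower in the combination. The shares were 26.6% and 28.5% in everolimus, and 31.2% and 30.1% in SGI-1027. Against everolimus the combination had 19.2% and 18.2%, and against SGI-1027 8.45% and 9.08%. For the interaction they were 22.7% above 0 and 21.2% below. The replicate numbers did not pair libraries, since deviations of libraries with the same number correlated at -0.18 to 0.036 over 18 pairs and 6 of 18 best matches shared the number. Each of the 10 genes had at least 849 counts in every library, and no fit varied the depth, so its part in the smaller changes was not tested.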
